A study of Mus musculus with 16 samples.

Results

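Cytosolic ribosomal protein genes were examined in 16 RNA-seq libraries made from mouse tumors of 4T1 cells, a BALB/c triple-negative mammary carcinoma line. The members were the genes whose symbols name a large- or small-subunit protein (Rpl or Rps, a number and at most 1 of the letters a, l or x), together with Rplp0, Rplp1, Rplp2 and Rpsa, in both the subcutaneous and the liver table. This gave 81 genes, 50 with large-subunit and 31 with small-subunit symbols, among 17428 genes present in both tables. The tumors grew in wild-type female BALB/c mice, stated to be 6 weeks old, either in the mammary fat pad (labelled subcutaneous, 400000 cells implanted) or under the capsule of the left liver lobe (200000 cells implanted), and tissue was taken after 15 days of growth. There were 3 untreated and 3 paclitaxel-treated subcutaneous libraries, and 5 untreated and 5 paclitaxel-treated liver libraries. Paclitaxel, a microtubule-stabilizing drug, was given intraperitoneally in doses of 10 mg/kg, with 5 doses each week over 2 weeks. The labels do not say whether the untreated libraries came from vehicle-treated mice or from tumors taken before dosing, nor whether each library is a separate mouse, so p-values here measure the spread between libraries. Tumors placed by injection into the liver are a model of growth at that site, without spread from a primary tumor. The excised tissue was digested to a cell suspension, so host cells remain in every library.

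The cytosolic ribosome translates all nuclear-encoded messages, and each of its proteins is made from its own gene in amounts that match the others. In mammals most of these messages begin with a C followed by a run of pyrimidines at the cap, the 5′ terminal oligopyrimidine (TOP) tract, through which mTOR signalling sets their translation. Growing tumor cells make many ribosomes, while hepatocytes devote much of their RNA to a few secreted proteins such as albumin, encoded by Alb.

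RefSeq start sites on GRCm38.p6 were found for 61 of the 81 members, and 6 windows are printed here because these genes carry the results below: Rps12, Rps27, Rps24 and Rplp2 rose in subcutaneous tumors after paclitaxel, Rpl23 had the steepest relation to Alb, and Rps27l had almost none. Each window runs 5′ to 3′ on the gene's strand, from 10 bases before the annotated start to its base 20, and the capitals mark its longest run of C and T.
Rps12: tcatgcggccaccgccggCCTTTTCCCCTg
Rps27: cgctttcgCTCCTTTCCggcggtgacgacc
Rps24: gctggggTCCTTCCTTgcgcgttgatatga
Rplp2: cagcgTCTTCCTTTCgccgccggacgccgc
Rpl23: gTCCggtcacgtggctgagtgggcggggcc
Rps27l: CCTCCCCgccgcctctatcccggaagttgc

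The windows lie at chr10:23787190-23787219 (minus strand, Rps12), chr3:90213629-90213658 (minus, Rps27), chr14:24490668-24490697 (plus, Rps24), chr7:141447641-141447670 (plus, Rplp2), chr11:97782420-97782449 (minus, Rpl23) and chr9:66946076-66946105 (plus, Rps27l), across each gene's annotated start. The longest pyrimidine run had 11 bases in Rps12, where it lay after the start. Those of Rplp2 (10 bases), Rps27 and Rps24 (both 9) crossed the start, and those of Rps27l (7) and Rpl23 (3) lay before it. Among the 61 members, 13 (21.3%) had a C followed by 4 pyrimidines exactly at the first RefSeq start, against 2.49% of 27025 genes. The letters CCGGAAG, a core bound by ETS factors, stood on either strand within 300 bases around the start (250 before, 50 after) in 24 members (39.3%), against 9.12% of all genes. TATAAA stood there in 6 members (9.84%), against 14.2% of all genes. A match describes letters only, and annotated starts can differ from those used in these cells.

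Levels are given as TPM, a length-corrected share of transcripts, computed over the genes that both tables hold. Because TPM is a share, fewer cells of a type and less RNA per cell cannot be told apart in such bulk samples. The depth behind each value is unknown, since no read counts were used. The members averaged at least 10 TPM over the 16 libraries in 77 of 81 cases and at least 1000 TPM in 66. Rplp1, an acidic protein of the stalk that recruits elongation factors, was the most abundant (mean 5134 TPM), followed by Rpl41 (4851 TPM) and Rps12 (4701 TPM). The 4 members under 10 TPM were Rpl10l (0.177 TPM), Rpl39l (0.578 TPM), Rpl32l (1.37 TPM) and Rpl3l (3.17 TPM); Rpl10l and Rpl39l are known for the testis and Rpl3l for striated muscle. Rpl32l, a member by its symbol, is annotated as a processed pseudogene in GENCODE M21. The same annotation names 299 pseudogenes for 59 members, and how reads were divided among such near-identical copies is not given in the sources used here. The low level of Rps6 (29.2 TPM), the S6 kinase substrate of the small subunit, is therefore uncertain as a level. A member entered a test only if its mean over the libraries compared was at least 1 (TPM, or FPKM in the liver table). Rpl3l, Rpl32l and Rpl39l therefore enter some tests and not others, and Rpl10l enters none unless the filter is dropped.

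In subcutaneous tumors the family took about 20% of all TPM, and in liver tumors anything from 4.93% to 23.0%. The summed members reached 19.0%, 20.4% and 19.2% in the 3 untreated subcutaneous libraries (19.5% ± 0.766, SD, n = 3). After paclitaxel the subcutaneous libraries stood at 22.7%, 20.7% and 23.3% (22.3% ± 1.39, SD, n = 3). All 3 treated values lay above the 3 untreated ones, the closest pair being treated replicate 2 and untreated replicate 2. The 5 untreated liver libraries gave 13.3%, 16.6%, 8.94%, 4.93% and 6.09% (9.97% ± 4.91, SD, n = 5). The 5 treated liver libraries gave 14.3%, 21.3%, 23.0%, 9.13% and 12.7% (16.1% ± 5.85, SD, n = 5). The liver groups overlapped widely, and only treated replicates 2 and 3 reached the subcutaneous range. The large subunit held 57.3% to 60.5% of the family total in every library, so the division between the subunits moved far less than the total. In subcutaneous tumors this share was 60.5%, 60.3% and 60.1% untreated and 57.3%, 58.4% and 58.7% treated, without overlap. In liver the groups overlapped in this share.

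**Figure D1:**
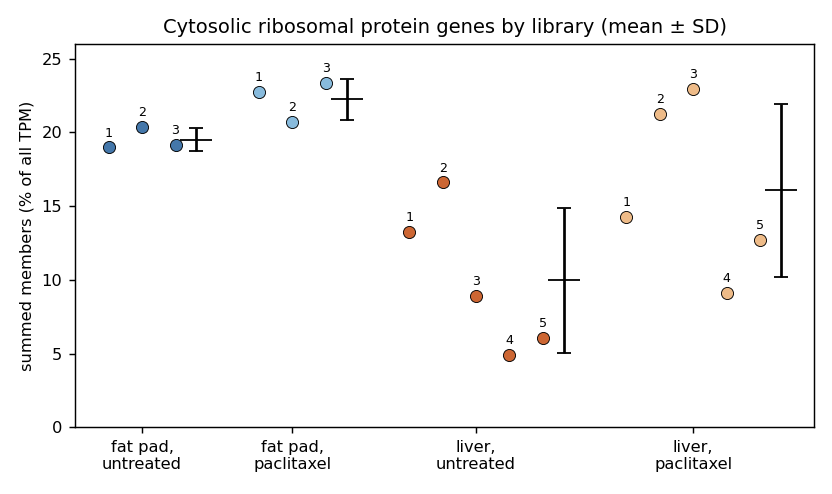
Summed TPM of the 81 members as a percent of all TPM (vertical axis) in each library, by group; points are libraries, numbered by replicate, and the bar beside each group is its mean ± SD. Subcutaneous (fat pad) libraries sit between 19.0% and 23.3%, liver libraries between 4.93% and 23.0%.

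Within the family, the 77 members of at least 10 TPM moved together. The SD of log2(TPM + 1) had a median of 0.72 over the 10 liver libraries and 0.14 over the 6 subcutaneous ones, where 9640 other genes of at least 10 TPM had 0.53 and 0.25. By these medians the members varied more than other genes in liver and less in the fat pad. The other genes were not matched to the members in level, and the median of the members' means was 1901 TPM. Of the 77, 75 were lowest in untreated liver replicate 4. They were highest in treated subcutaneous replicate 3 for 30 genes, treated subcutaneous replicate 1 for 21, treated liver replicate 3 for 14, untreated subcutaneous replicate 2 for 11 and untreated liver replicate 2 for 1. As a description, each member's Pearson correlation with the mean of the others over the 16 libraries was 0.79 to 0.997 for 76 of them, and the libraries share tissue and composition, which also enter that number. Rps27l, a p53-inducible paralog of Rps27, was the exception at −0.31.

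The largest SD over the 16 libraries among these 77 was 1.51 (Rpl23, a large-subunit protein known to bind Mdm2) and the smallest 0.19 (Rps27l). Rpl23 had 673, 637 and 682 TPM in the untreated and 851, 791 and 948 TPM in the treated subcutaneous libraries. In untreated liver it had 400, 521, 290, 55.6 and 55.3 TPM, and in treated liver 144, 891, 1002, 81.0 and 132 TPM. Rpl23 fell into 2 sets of liver libraries, with untreated replicates 4 and 5 and treated replicates 1, 4 and 5 low. Rps27l had 221, 221 and 213 TPM in untreated and 239, 199 and 217 TPM in treated subcutaneous libraries. Its liver values were 300.0, 321, 280, 225 and 257 TPM without treatment and 242, 230, 231, 254 and 225 TPM with it. Its highest value was thus 1.62 times its lowest, where the same ratio was 18.1 for Rpl23.

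In liver the members were set beside Alb, which had 23247, 8231, 27940, 56772 and 61264 TPM in the untreated and 10786, 872, 734, 21906 and 11071 TPM in the treated liver libraries, and at most 4.22 TPM in subcutaneous tumors. In the treated liver group, the order of the libraries by Alb was exactly the reverse of their order by summed members. In the untreated group the order was also reversed, except that replicates 4 and 5, the highest in Alb, changed places. From a list of 42 hepatocyte genes, those held by both tables were summed. They took 6.996% to 27.6% of TPM in untreated liver and 0.901% to 18.5% in treated liver. Counted over the TPM outside those genes, the members still ranged from 6.78% to 23.2% in liver.

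**Figure D2:**
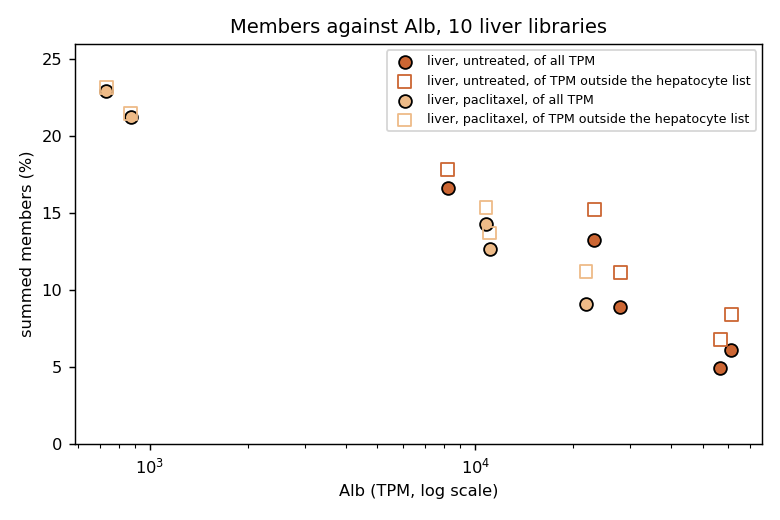
Summed members (vertical axis, %) against Alb (horizontal axis, TPM on a log scale) in the 10 liver libraries; circles are percent of all TPM and squares percent of the TPM outside the hepatocyte list. Both run from 23.0% or 23.2% at 734 TPM of Alb to 4.93% or 6.78% at 56772 TPM.

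In a limma fit of log2(FPKM + 1) on log2(Alb + 1) over the 10 liver libraries, with treatment group as a second term, 74 of 77 members tested fell with Alb and none rose at an adjusted p (Benjamini-Hochberg over all genes) under 0.05. The same call was made for 42.3% of all genes tested in the lower and 14.6% in the higher direction. The median slope of the members was −0.31 log2 units per log2 unit of Alb, and that of all genes −0.10. The slope of Rpl3, which helps to form the peptidyl transferase centre, was −0.35 ± 0.08 (SE), with an adjusted p of 0.0047 in limma. That of Rplp1 was −0.40 ± 0.10 (SE, adjusted p = 0.00869 in limma).

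The steepest slopes belonged to Rpl23 (−0.86 ± 0.11, SE, adjusted p = 0.000397 in limma), Rpl29 (−0.63), Rpl37 (−0.58) and Rpl36a (−0.58), all of the large subunit. The same genes split the liver libraries into sets, as described below. Untreated replicates 1 and 3 had more Alb than treated replicates 1, 4 and 5 (23247 and 27940 against 10786, 21906 and 11071 TPM). They also had more Rpl23 (217 and 156 against 73.6, 42.6 and 67.2 FPKM). The part of this split in the slopes was not tested. Rps24, Rpl23a, Rps4x, Rps28 and Rpl41 were also among the 10 steepest, between −0.49 and −0.44. The stalk protein Rplp2 had −0.42 and Rplp0, the stalk's base, −0.34. Rpsa, also known as the laminin receptor precursor, had −0.25, Rpl13a −0.32, Rpl22 −0.40, and Rps27a, made as a fusion with ubiquitin, −0.43. The shallowest slope that passed was that of Rpl8 (−0.15), just below Rpl10 (−0.17). The 3 members that did not pass were Rpl36 (−0.22, adjusted p = 0.0589), Rps6 (−0.11, adjusted p = 0.098) and Rps27l (−0.03, adjusted p = 0.491), all from limma. Within the 5 untreated libraries alone the members' median slope was −0.58, and within the 5 treated alone −0.24. With libraries rescaled by median of ratios, which moved the median of all genes, the members' median slope was −0.19 and 64 passed as lower. Of all 13007 genes in that fit, 3000 passed as lower and 3320 as higher.

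Slopes of the same sign were found in other gene groups, some within and some outside the translation machinery. Of 21 tested TOP messages outside the family, 19 fell with Alb (median −0.26), among them Btf3 (−0.35) and Naca (−0.30) of the nascent-chain complex and the elongation factor gene Eef1b2 (−0.38). Of 25 ribosome biogenesis genes 21 fell (median −0.30), including Dkc1 (−0.45), a pseudouridine synthase, and Polr1b (−0.32), of RNA polymerase I. Of 15 translation initiation factors 7 fell (median −0.13), and of 78 mitochondrial ribosomal protein genes 35 fell (median −0.09), both medians near that of all genes. Of 14 proteasome core genes 10 fell (median −0.14), among them Psma5 (−0.28). Of 15 tested carcinoma epithelium markers 11 fell (median −0.53), Epcam by 0.68 and Krt19 by 0.61 per log2 unit of Alb. Of 10 endothelial markers 9 rose, such as Kdr (0.42). The summed carcinoma markers went from 777 to 3875 TPM in untreated and from 1392 to 5127 TPM in treated liver, against 5293 to 6619 TPM in subcutaneous tumors. The part of these cell types in the members' slopes was not tested.

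The composition of the family itself differed between liver libraries. Rpl23 took 0.301%, 0.314%, 0.324%, 0.113% and 0.0908% of the summed members in untreated liver replicates 1 to 5 and 0.101%, 0.419%, 0.437%, 0.0887% and 0.104% in treated replicates 1 to 5. In the 6 subcutaneous libraries its share was 0.312% to 0.406%. Untreated replicates 4 and 5 and treated replicates 1, 4 and 5 thus stood below the other 11 libraries, and the same 5 were lowest in the shares of Rpl29, Rpl37 and Rpl36a. Rpl10, a late-joining large-subunit protein, took its largest share, 3.82%, in untreated liver replicate 4, where it had 1883 TPM. Untreated replicates 4 and 5 also stand apart in the authors' table of untreated libraries, where a constant per gene has the opposite sign in these 2 from that in the other 6. These 5 libraries include the 2 highest in Alb, and the part of either feature in the low shares was not tested.

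**Figure D3:**
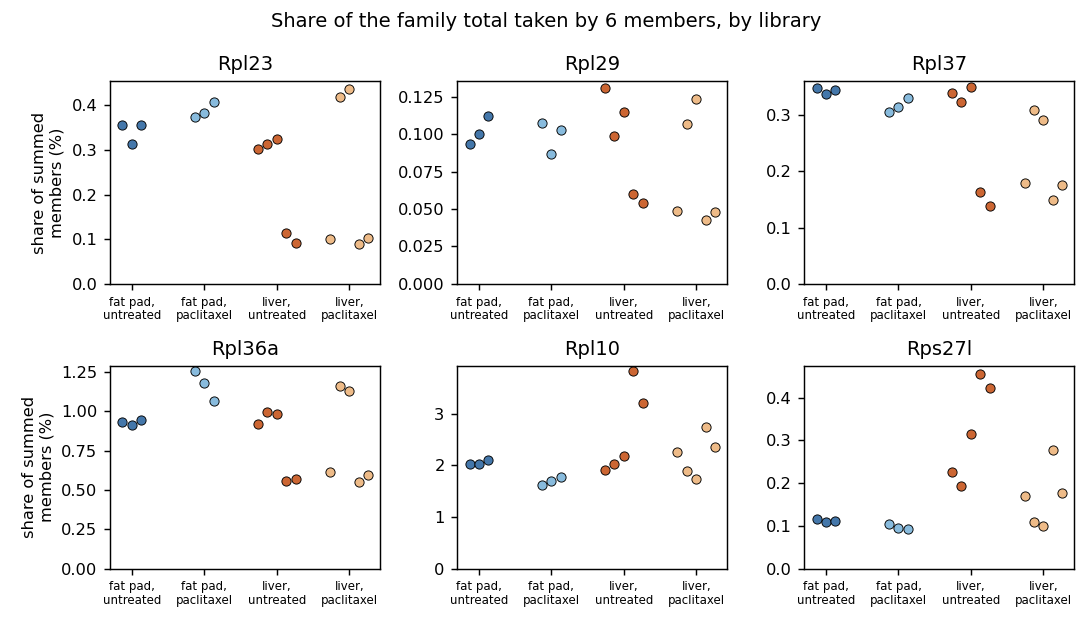
Share of the summed members (vertical axis, %) taken by Rpl23, Rpl29, Rpl37, Rpl36a, Rpl10 and Rps27l in each library, by group; points are libraries in order of replicate number. The first 4 genes split the liver libraries into 2 sets, for Rpl23 at 0.0887% to 0.113% and 0.301% to 0.437%.

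Before treatment, 38 of 78 members tested were lower in liver than in subcutaneous tumors and none was higher, where the background was 32.6% of all genes lower and 14.9% higher. Rpl3 had 2581, 2592 and 2285 TPM in the subcutaneous libraries and 1350, 1832, 869, 509 and 545 TPM in the liver ones. The groups did not overlap, and the difference was −1.46 ± 0.44 (log2, SE, adjusted p = 0.0282 in limma). Rplp1 had 5710, 6857 and 6079 TPM against 4842, 5646, 3079, 1099 and 1518 TPM. These groups did not overlap either, by a narrow margin at replicate 2 of the liver group, and the difference of −1.20 did not pass (adjusted p = 0.095 in limma).

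The members' median was −1.11 and that of all genes −0.51. By limma the 10 largest falls among the members that passed were those of Rpl3, Rpl5 (−1.44), which binds 5S rRNA, Rplp0 (−1.43), Rps4x (−1.43), Rpl12 (−1.42), Rpl39 (−1.42), Rpl32 (−1.40), Rpl31 (−1.39), Rpl22 (−1.30) and Rps19 (−1.28). The values without overlap between groups covered 70 of 78 members, against 51.4% of all genes. Rpl23 (−1.88) and Rpl37 (−1.60) had the largest differences but did not pass (adjusted p = 0.0734 and 0.0721 in limma). Rps27l alone was above 0, at 0.33 (adjusted p = 0.122 in limma).

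The count of called members depended on single libraries. Leaving out untreated subcutaneous replicate 1, 2 or 3 left 0 called members. Over all genes, 797 of 13612, 1541 of 13635 and 870 of 13572 were lower in these fits. Leaving out liver replicate 3, 4 or 5 left 2, 3 or 2 members lower. Those fits called 1901 of 13661, 2528 of 13669 and 2536 of 13698 genes lower. Without liver replicate 2, 78 members were lower, as were 7039 of 13610 genes. With liver replicates 1 to 3 alone, 7 were lower and 1 higher, against 2744 and 1942 of 13719 genes, and the median was −0.65. Scaling by median of ratios gave 11 lower and 1 higher, against 2393 and 3166 of 13648 genes. The members' median was then −0.57, and that of all genes moved from −0.51 to −0.01.

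Of 21 TOP messages outside the family, 15 were also lower in untreated liver (median −1.04), for example Pabpc1 (−1.52), the poly(A)-binding protein, and Eif3e (−1.35). Of 25 ribosome biogenesis genes 11 were lower and none higher (median −0.97), as in Nob1 (−1.57). The mitochondrial ribosome differed: of 78 genes 6 were higher and 2 lower, with a median of 0.004, and Mrpl16 was higher by 0.62. Nuclear genes of short oxidative phosphorylation subunits were higher in 9 of 24 and lower in none, led by Uqcrq (1.94). In the same comparison 13 of 16 carcinoma markers were lower (median −2.57) and 37 of 37 hepatocyte genes higher (median 10.1). The part of cell makeup in the members' difference was not tested.

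After paclitaxel, the difference between sites passed for no member. Rpl3 had 2153, 1945 and 2425 TPM in subcutaneous and 1406, 1832, 2091, 777 and 1033 TPM in liver tumors, and Rplp1 had 7923, 6142 and 6564 against 4334, 7277, 8143, 2882 and 4056 TPM. Both genes overlapped between sites, Rpl3 through liver replicate 3 and Rplp1 through liver replicates 2 and 3. By limma none of 79 members passed, against 9.41% of all genes. An unadjusted p under 0.05 was found for 8 members, against 3966 of 13952 genes. When liver replicate 3 was left out, 1 member was called lower, as were 416 of 13948 genes. The members' median was −0.58 and that of all genes −0.08. Groups did not overlap for 9 members, against 27.8% of all genes. The largest differences were those of Rpl23 (−1.68, adjusted p = 0.216) and Rpl3l (−1.65, adjusted p = 0.118), and Rps27l stood at 0.12 (adjusted p = 0.586), all from limma.

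In subcutaneous tumors, a subset of members rose after paclitaxel. Rps12, a small-subunit protein gene with 24 named pseudogenes whose reads may be shared with it, had 4670, 4947 and 5198 TPM before and 9260, 7420 and 7360 TPM after treatment. All treated values were above all untreated ones, and the difference was 0.69 ± 0.12 (log2, SE, adjusted p = 0.0223 in limma). Rps24, a gene mutated in Diamond-Blackfan anemia, went from 3728, 3624 and 3818 TPM to 6078, 5413 and 5541 TPM (0.61 ± 0.09, SE, adjusted p = 0.017 in limma). Its untreated values were tight, and the treated ones were again all higher. Rplp2 went from 2324, 2815 and 2310 to 4111, 3284 and 3584 TPM (0.56 ± 0.13, SE, adjusted p = 0.043 in limma), while its stalk partners Rplp1 (0.14, adjusted p = 0.501) and Rplp0 (−0.15, adjusted p = 0.403) did not pass in limma.

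By limma, 12 of 80 members tested rose and none fell, where 2.66% of all genes rose and 4.27% fell. The other risers were Rps27 (0.66), Rps21 (0.57), Rpl21 (0.56), Rpl38 (0.54), Rpl36a (0.51), Rpl17 (0.44), Rps23 (0.44), Rps26 (0.44) and Rps27a (0.43), so that 7 of 31 small-subunit and 5 of 49 large-subunit members had risen. The median over all members was 0.15 and over all genes −0.03. Groups did not overlap for 39 of the 80 in either direction, against 34.7% of all genes. Rpl3 had a difference of −0.20 (adjusted p = 0.298 in limma), Rpsa −0.12, Rpl10 −0.09, Rps6 0.02, Rps27l −0.01, Rpl22 0.11 and Rpl13a 0.16, none of which passed.

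**Figure D4:**
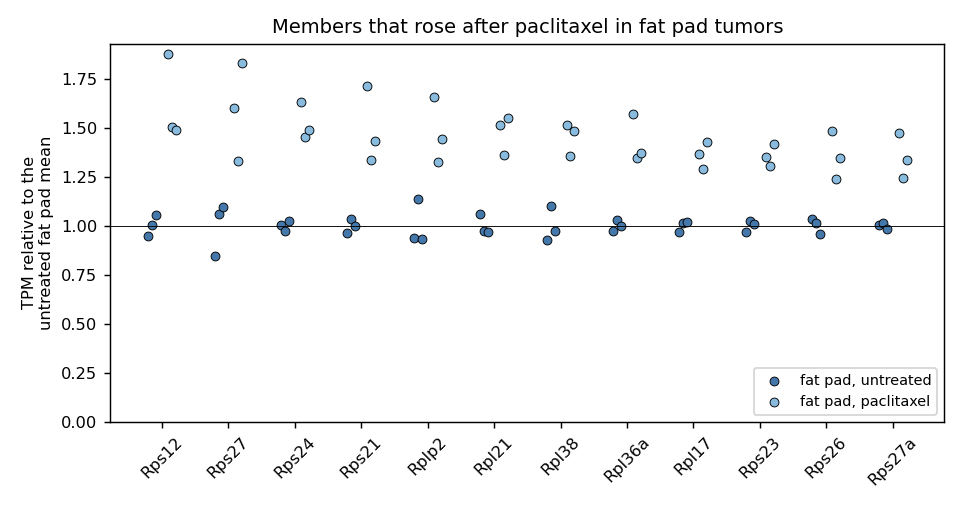
TPM of the 12 members that rose in subcutaneous (fat pad) tumors, divided by the mean of the 3 untreated libraries (vertical axis); each point is a library. Treated points lie above untreated ones for all 12 genes, from Rps12 (log2 difference 0.69) to Rps27a (0.43).

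The number of risers depended on the test and on each library. It was 1 with no filter on low values, 2 without a mean-variance trend and 5 after median-of-ratios scaling. Over all genes, 249 of 17678, 256 of 13363 and 392 of 13363 rose in these fits. Leaving out untreated replicate 1, 2 or 3 gave 0 risers, where 26 of 13381, 65 of 13400 and 32 of 13304 genes rose. Leaving out treated replicate 1 or 3 gave 2 or 4, against 120 of 13402 and 272 of 13415 genes. Leaving out treated replicate 2 gave 15, against 242 of 13224 genes. No member was called lower under any of these settings, by limma.

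Of the 12 members that rose, 7 were among the 26 shortest, 2 among the 25 of middle length and 3 among the 26 longest. Across 77 members the Spearman correlation between the difference and the median length of the gene's coding transcripts was −0.41, a description over genes of the same libraries. The 26 shortest (up to 599.5 bases) had a median difference of 0.27 and the 26 longest 0.07. For the liver response the same correlation was 0.02. In the subcutaneous libraries the 24 tested oxidative phosphorylation genes with short transcripts had a median difference of 0.26, with 2 risers, Atp5l (0.62) and Cox7c (0.52). Among TOP messages outside the family, Btf3 (0.50) and Tpt1 (0.50) rose and Pabpc1 fell by 0.56. None of 25 ribosome biogenesis genes passed (median −0.17), and 1 of 78 mitochondrial ribosome genes rose, Mrpl33 (0.49). Of 12 proliferation genes 7 fell, Bub1b by 1.31, and of 9 tested endothelial markers 5 rose, Cldn5 by 1.97. The part of transcript length or of these cell types in the members' rise was not tested.

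Rpl3l, which replaces Rpl3 in striated muscle, had 2.48, 2.27 and 2.12 TPM in untreated and 5.97, 21.6 and 2.63 TPM in treated subcutaneous libraries (1.34 ± 0.59, SE, adjusted p = 0.191 in limma). Treated replicate 2 stood far above the rest. A sum of 10 skeletal muscle genes, picked after that value was seen, was 10004 TPM in the same library and 205 to 511 TPM in the other 5. Rpl39l had 2.13, 1.32 and 2.76 TPM before and 0.582, 0.720 and 0.499 TPM after treatment, without overlap, and did not pass (adjusted p = 0.0766 in limma).

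In liver, no member passed in the comparison of treated with untreated tumors. Rplp1 had 4842, 5646, 3079, 1099 and 1518 TPM before and 4334, 7277, 8143, 2882 and 4056 TPM after paclitaxel, and Rpl3 had the values given above. The groups overlapped for both genes, as for each of the 77 members tested, where 6.63% of all genes did not overlap. The differences were 0.88 ± 0.54 (SE, adjusted p = 0.248) for Rplp1 and 0.57 ± 0.44 (SE, adjusted p = 0.329) for Rpl3, on log2(FPKM + 1) by limma.

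By limma, 0 of 77 members were called, against 3.64% of all genes. An unadjusted p under 0.05 was found for 11 members, against 4123 of 13008 genes. Leaving out untreated replicate 2 gave 6 called higher, and leaving out treated replicate 4 gave 1. Over all genes, these fits called 2510 of 12997 and 941 of 13027 higher. The members' median was 0.72 and that of all genes 0.37, and 76 of the 77 differences were above 0. Rps12 (1.08), Rpl21 (1.03), Rpl38 (0.99) and Rps23 (0.98) had the highest values, and Rps27l (−0.22) was the only one below 0. With log2 Alb as a covariate the members' median was −0.10 and that of all genes 0.009. With untreated replicates 1 to 3 alone, a choice made after seeing the data, these medians were 0.22 and 0.13. Scaling by median of ratios moved the median of all genes to 0.03 and that of the members to 0.32. In this comparison all 15 neutrophil markers rose, from a summed 206 to 1654 TPM before to 3874 to 23074 TPM after treatment. Of 38 hepatocyte genes 2 fell, Mup3 by 5.65 and Fabp1 by 5.00, with a list median of −2.17, and none of 15 carcinoma markers passed, with a median of 1.45. The part of these cell types in the members' difference was not tested.

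**Figure D5:**
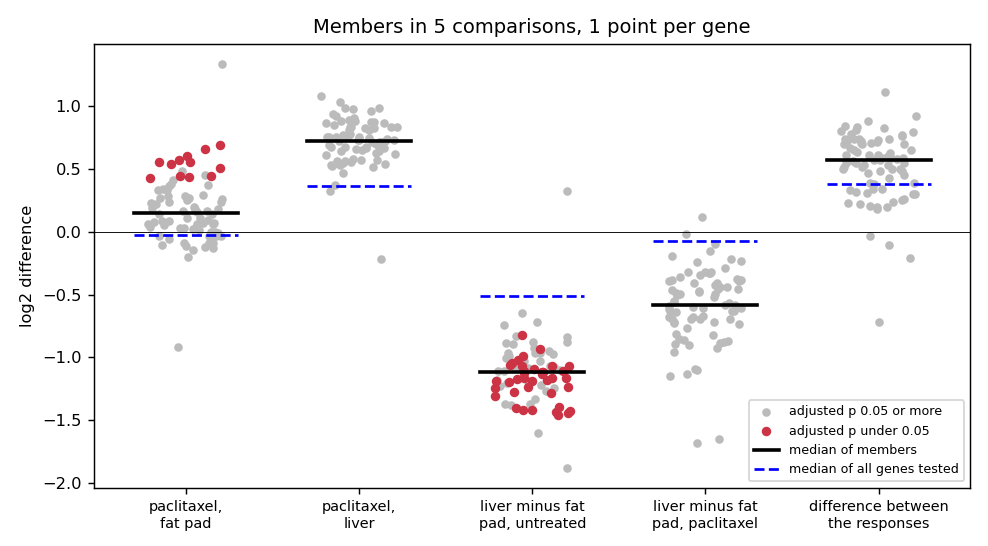
Log2 differences (vertical axis) of the members in 5 comparisons, 1 point per gene, with those of adjusted p under 0.05 in red; solid lines are the members' medians and dashed lines those of all genes tested. The medians are 0.15 and 0.72 for paclitaxel at the 2 sites, −1.11 and −0.58 for liver minus fat pad, and 0.57 for the difference between the responses.

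The difference between the responses (liver minus subcutaneous) was tested in 1 limma fit of the 16 libraries. None of 79 members passed, against 2.98% of all genes, and 1, Rpl8, had an unadjusted p under 0.05 (0.70, adjusted p = 0.196). Of the 13875 genes tested, 3476 had an unadjusted p under 0.05. The members' median was 0.57 and that of all genes 0.38. Rplp0 had the largest difference (1.11 ± 0.62, SE, adjusted p = 0.263 in limma), since it was 0.97 in liver and −0.15 in subcutaneous tumors. Rps12, the strongest riser in subcutaneous tumors, had 1.08 in liver and 0.69 there.

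The 10 genes outside the family whose log2 levels ran most like the members' mean over the 16 libraries, among genes of at least 10 TPM, were Polr1d (Pearson r 0.997), LOC105244208, Nck2, Zfp410, Terf2, Eef1b2, Rpl37rt, Ptma, Tead2 and Inava (r 0.988). Polr1d encodes a subunit shared by RNA polymerases I and III. These correlations are a description over libraries that share site and Alb content.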

How the data were processed

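Poly(A) RNA was sequenced from digested tumor tissue, per the labels' protocols. The submitters' processing notes name fastp, StringTie, GRCm38 and mm10 but give neither roles nor versions. The authors deposited FPKM for the 10 liver libraries and TPM for the 6 subcutaneous ones, as read from the values. The authors' table of 8 untreated libraries holds values of another kind, TPM shifted by a constant per gene, and was used only to describe that constant. Of the names, 24 turned into dates in the subcutaneous table and 1 on more than 1 row were left out, and 364 altered ones were restored.

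The members and lists were chosen with earlier results of these data known. TPM was recomputed over 17428 shared genes for levels and site comparisons. Each comparison was fitted with limma 3.58.1 (R 4.3.3, lmFit and eBayes with trend) on log2(value + 1) for genes of mean at least 1, with Benjamini-Hochberg adjustment over all genes tested and calls at 0.05. Files and figures were handled in Python 3.11.15 with pandas 2.3.3. The fits were tested on simulated data. Named were Rpl3, Rplp1, Rplp0, Rplp2, Rpsa, Rps6, Rps27a, Rpl13a, Rpl22, Rpl10 and the paralogs Rpl3l, Rpl39l and Rps27l, up to 10 called members each way per comparison, the members of largest and smallest SD, up to 4 genes per list, and 10 genes of like pattern; others with the highest or lowest values were picked after seeing them. The value of 1 gene that this rule names is not reported here. Alternatives covered pseudocount, filter, scaling, trend, single libraries, the replicate number and the libraries or covariates used. Start windows and 300-base promoters are from RefSeq (GRCm38.p6), and gene models from GENCODE M21.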

Additional observations from a re-analysis of the deposited data

Results flagged for a closer look

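Of 76 tests for a library far from the others (Dixon's ratio in the groups of 5 liver libraries, over the summed share, Alb and the named members), 1 stood out, where chance gives about 1 in 20. Rpl39l had 0.165 TPM in treated liver replicate 2 and was listed at 0 in the other 4 treated liver libraries.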

How the results depend on the processing

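Read depth is unknown for every value here, and the liver groups' spread and the 3 subcutaneous libraries a group limit what can be called. The cause of each change below was not tested.

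Leaving out 1 library at a time, called members ranged from 0 to 15 higher for the subcutaneous response, 0 to 6 higher for the liver response, 0 to 78 lower for the untreated and 0 to 1 lower for the treated site difference, and 63 to 76 lower for the Alb slope. None was called in the difference between the responses. Over all genes, the fits with 1 library left out called 26 to 272 higher for the subcutaneous response. For the liver response they called 82 to 2510 higher. They called 797 to 7039 lower for the untreated and 94 to 431 lower for the treated site difference. For the Alb slope they called 3706 to 5886 lower. The 6 in liver came without untreated replicate 2, and 1 without treated replicate 4, and the 1 in the treated site difference came without treated liver replicate 3. Without untreated liver replicate 2, 2510 of 12997 genes were higher in the liver response and 7039 of 13610 lower in the untreated site difference.

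No label pairs the libraries by replicate number. The correlations of same-numbered deviations were 0.13, −0.14 and −0.11 in subcutaneous tumors and −0.13, 0.65, 0.06, 0.74 and 0.23 in liver. For untreated liver replicates 3 and 4 the best match among treated liver libraries had the same number, and for replicates 1, 2 and 5 another. Whether the numbers pair the liver libraries is therefore not known. With the replicate number as a block, 0 members were higher after paclitaxel in subcutaneous tumors and 8 in liver tumors, and 0 were lower with Alb (median −0.1953, a fit added after seeing the data). Over all genes, 111 of 13363, 2435 of 13008 and 3 of 13007 were called so in these fits, in the same order. The site differences could be blocked only over libraries numbered 1 to 3, without liver replicates 4 and 5. Then 2 members were lower before treatment, against 7 over the same libraries without the block. Of 13719 genes, 1876 and 2744 were lower in these fits, in the same order. In a blocked fit of this kind after treatment the site difference of Rplp0 was 0.0377, of Rpsa 0.0045 and of Rps6 0.0606. There 2 choices were changed at once. With the block over all 10 liver libraries the Alb slope of Rps27l was 0.0513.

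Without a filter, 1 member was higher in the subcutaneous response, 14 were lower in the untreated and 1 in the treated site difference. Over all genes these calls were made for 249 of 17678, 4236 of 17427 and 462 of 17428. Median-of-ratios scaling gave 5 higher in the subcutaneous response, 1 higher and 11 lower in the untreated site difference, and a median Alb slope of −0.1865. Over all genes, 392 of 13363 were higher in that response, and 3166 higher and 2393 lower of 13648 in that site difference. Without hepatocyte genes in the scaling, 1 was higher and 14 lower in the untreated site difference, against 2666 and 2861 of 13611 genes. The median slope was then −0.2395. Without a trend, 2 were higher in the subcutaneous response, against 256 of 13363 genes. In the untreated site difference, 1 fit of all 4 groups gave 66 lower, against 5362 of 13875 genes. Liver replicates 1 to 3 alone gave 1 higher and 7 lower there, against 1942 and 2744 of 13719 genes. The median slope was −0.3946 on other hepatocyte genes, −0.5808 in untreated and −0.2396 in treated libraries alone. The median of the liver response was −0.0963 with Alb as a covariate.

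Direction turned, without passing, for these named genes. In the subcutaneous response Rplp1 was −0.0786 after quantile normalization, Rps6 −0.1262 to 0.0872 over the libraries left out in turn, and Rps27l 0.0247 by median of ratios, 0.0322 by quantiles and −0.0747 to 0.0597 over the libraries left out. With Alb as a covariate, the liver response was −0.3568 for Rpl3, −0.1849 for Rplp1, −0.3793 for Rplp2, −0.4092 for Rps27a, −0.1903 for Rpl13a and −0.3647 for Rpl22. The treated site difference of Rps6 was 0.0044 without hepatocyte genes and −0.1659 to 0.0473 over the libraries left out. In the difference between the responses, Rplp2 was −0.274 by median of ratios, −0.0096 without hepatocyte genes, −0.423 with untreated liver replicates 1 to 3 (added after seeing the data) and −0.0843 to 0.4636 over the libraries left out. There Rps27a was −0.1642 by median of ratios and −0.3122 with those 3 replicates, Rpl13a was −0.0009 with them, and Rpl3l was −1.3141 to 0.0044 over the libraries left out, the latter without treated subcutaneous replicate 2. The Alb slope of Rps6 was 0.0093 by median of ratios, and that of Rps27l was 0.0938 by median of ratios, 0.0412 without hepatocyte genes, 0.0138 without the group term and 0.0006 in treated libraries alone.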
